A study of Mus musculus with 273 samples.

Results

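The comparison set the daily course of miRNA levels in liver against that in hypothalamus, using every library of both tissues: 149 of the 273 libraries of the series, 77 from liver and 72 from hypothalamus. All came from male wild-type C57BL/6J mice, an inbred laboratory strain, aged 26 weeks, with no treatment or transgene given in the labels. Tissue was collected every 3 h for 36 h, and zeitgeber time (ZT) is that time point on a 24 h clock, so that ZT0 to ZT12 were sampled in a first and a second passage. From ZT0 to ZT21 in steps of 3 h, liver had 12, 12, 12, 11, 12, 6, 6 and 6 libraries and hypothalamus had 12, 11, 12, 10, 12, 5, 5 and 5. The question was which miRNAs followed a 24 h curve of another size or phase in liver than in hypothalamus, tested as the interaction of tissue with the cosine and sine of time.

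A miRNA is cut from a hairpin precursor, and the mature strand pairs with messenger RNAs through its seed, bases 2 to 8, lowering their translation and stability. Most mature miRNAs are long-lived, so a rhythm in the transcription of a precursor is often flattened in the mature RNA. The liver holds strong daily rhythms driven by its own clock and by feeding, and the hypothalamus contains the suprachiasmatic nucleus, the master clock, among many other nuclei. The tables count reads per hairpin, so both arms of a hairpin are added, and values are given as CPM, the count of a hairpin scaled to a common library total. In bulk tissue, fewer cells of a type and less RNA per cell cannot be told apart.

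The miRNAs on which the results turn are shown as mature sequences from RefSeq (GRCm38.p6), 5′ to 3′, with the seed in capitals. They are given because the seed defines the targets and because copies that share a mature strand can share reads. For miR-150 the 3p strand is shown, and the counts do not separate it from the 5p strand, which has another seed. All 3 miR-29 family members carry the seed AGCACCA, and miR-29b-3p is the same from both of its genomic copies. The 5p arms of these copies differed at 2 of 21 aligned bases. The seed of miR-16-5p, AGCAGCA, is found in 10 mature names of the table.
miR-150-3p: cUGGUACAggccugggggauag
miR-29b-3p: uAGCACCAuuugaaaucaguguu
miR-29b-1-5p: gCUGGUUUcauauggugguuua
miR-29b-2-5p: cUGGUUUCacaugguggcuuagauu
miR-29a-3p: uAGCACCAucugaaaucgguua
miR-29c-3p: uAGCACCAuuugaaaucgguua
miR-142a-3p: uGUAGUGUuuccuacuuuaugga
miR-223-3p: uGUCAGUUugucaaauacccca
miR-342-3p: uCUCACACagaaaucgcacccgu
miR-16-5p: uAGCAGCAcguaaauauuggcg
miR-376b-3p: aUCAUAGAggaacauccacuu

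The hairpin of miR-5099, the miRNA that cycled in both tissues, is given whole in lower case because no arm is separated in the counts.
miR-5099 hairpin: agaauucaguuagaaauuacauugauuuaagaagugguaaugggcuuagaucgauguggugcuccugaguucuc

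Library totals ran from 1988671 to 5236177 counts in liver and from 1079380 to 3954710 in hypothalamus, and the limit set by an absent read, taken as 3 counts, lay at 0.573 to 1.51 CPM in liver libraries and at 0.759 to 2.78 CPM in hypothalamus libraries. These limits cover counting error alone. The defining markers followed the labels. Mean miR-122, the hepatocyte miRNA, was 21398 CPM in liver and 2.82 CPM in hypothalamus, and the neuronal miR-124-2 was at 0 in every liver library. Of the hypothalamus libraries 3 stood apart and are left out in turn where a result rests on them. In ZT0 replicate 12 miR-122 stood at 58.4 CPM. In ZT0 replicate 9 and ZT9 replicate 8 miR-375, a miRNA of endocrine cells, stood at 111518 and 80244 CPM, against at most 6648 CPM in the 70 other hypothalamus libraries, and miR-141 and the miR-200 family stood high in the same pair.

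Of 1226 hairpins, 373 were tested. The 24 h curve differed between liver and hypothalamus for 3 of them (0.804% of those tested, edgeR quasi-likelihood F test, Benjamini-Hochberg adjusted p under 0.05): miR-150, miR-29b-1 and miR-122. The first pair cycled in liver with a far smaller curve in hypothalamus, while the call for miR-122 came from a single hypothalamus library. At an unadjusted p under 0.05 there were 36 miRNAs, against 18.65 that this threshold gives by chance over 373. In the same fit a liver curve was called for 25 miRNAs (6.7%) and a hypothalamus curve for 2 (0.536%). The mean of the liver and hypothalamus curves was called for 8 (2.14%). This mean can pass where a single tissue cycles, and miR-150, miR-29b-1 and miR-122 were among the 8. At an unadjusted p under 0.05 the liver curve had 61 miRNAs and the hypothalamus curve 9, against the same 18.65 by chance. The hypothalamus count thus lay below that figure, and the reason was not tested. A call in liver with none in hypothalamus is not a difference, which was tested on its own.

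miR-150, a miRNA of mature lymphocytes that limits the transcription factor Myb, is encoded at chr7:45121757-45121821 on the plus strand (GRCm38.p6), where the annotation used places no host gene. In liver its level in the 12 libraries of ZT0 ran from 58.4 to 199 CPM with a median of 106. The ZT3 libraries held 113 to 258 CPM with a median of 158, and the ZT6 libraries 95.0 to 334 CPM with a median of 201. These were the highest times of the liver series. From there the liver medians were 136 CPM at ZT9 (79.7 to 177), 108 at ZT12 (63.1 to 199) and 52.5 at ZT15 (45.5 to 85.1). At ZT18 the liver median was 80.7 CPM (44.7 to 159), and at ZT21 it was 83.0 CPM (45.2 to 139). The 6 liver libraries of ZT15 all lay below the lowest ZT6 library, although neighbouring times overlapped. ZT6 and ZT15 are the times of the highest and lowest median, picked from these values. How many other miRNAs show such a gap was not counted.

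In hypothalamus miR-150 showed no such order. Its medians were 1353 CPM at ZT0 (847 to 3678), 2288 at ZT3 (1253 to 2827), 2354 at ZT6 (1031 to 2817), 2279 at ZT9 (941 to 2943) and 1601 at ZT12 (818 to 2997). The 5 hypothalamus libraries of ZT15 held 2560.1, 2795, 2655, 1396 and 1276 CPM, those of ZT18 held 2049, 2264, 2608, 3473 and 1161 CPM, and those of ZT21 held 2408, 2808, 1164, 1412 and 1224 CPM. The ranges of all 8 times overlapped. The hypothalamus values fell into an upper and a lower band that followed library runs, stretches of consecutive library numbers sharing 1 code in the labels. Runs 1 to 6 held 1735 to 3678 CPM with a median of 2473 (n = 46), and runs 7 to 10 held 818 to 1412 CPM with a median of 1188 (n = 26), with no overlap.

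The fitted liver curve of miR-150 had a peak-to-trough log2 size of 1.31 ± 0.17 (SE), a 2.48-fold range, with its peak at ZT5.06 ± 0.45 h. In hypothalamus the size was 0.11 ± 0.18. The log2 ratio of liver over hypothalamus followed a curve of 1.22 ± 0.25 (adjusted p = 0.00157, edgeR). With library run as a term the ratio curve was 1.31 (adjusted p = 3.21e-09). Within the 4 liver runs of at least 10 libraries the liver size was 1.23, 0.90, 1.57 and 1.22, with peaks from ZT4.04 to ZT5.80. Within the 4 hypothalamus runs of that size it was 0.21, 0.12, 0.11 and 0.33, with peaks scattered over ZT10.4, ZT23.2, ZT12.1 and ZT21.9. The call held in 21 of 21 other settings, with adjusted p at most 0.0187.

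**Figure D1:**
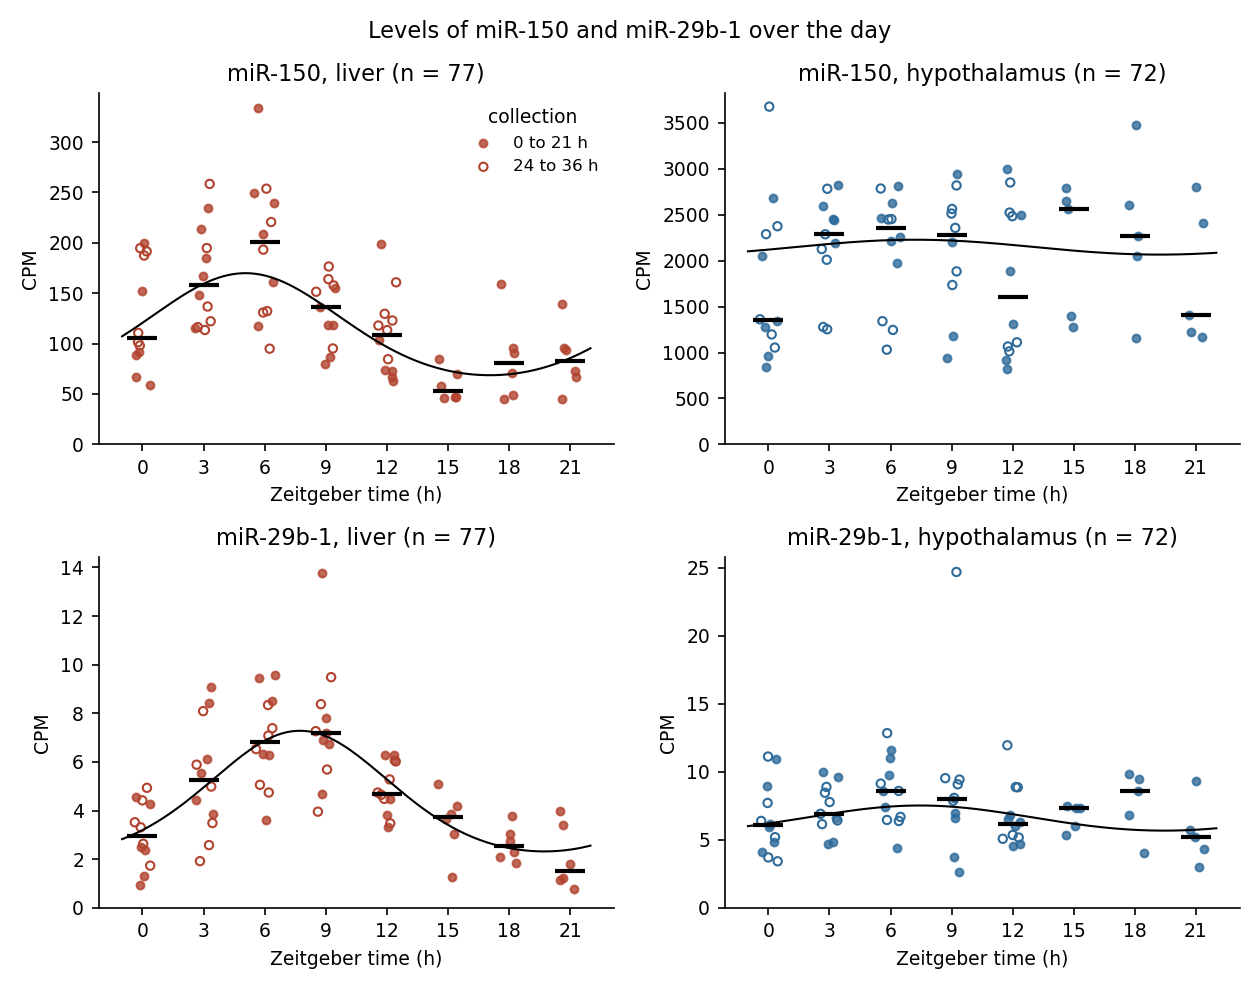
Levels of miR-150 (top) and miR-29b-1 (bottom) in CPM against zeitgeber time, liver left and hypothalamus right; points are libraries, filled for 0 to 21 h and open for 24 to 36 h, bars are medians and lines the fitted 24 h curves. Liver medians of miR-150 ran between 52.5 and 201 CPM in an ordered wave, while the hypothalamus values split into an upper and a lower band at most times.

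miR-29b-1 belongs to the miR-29 family, which lowers collagens and other matrix proteins and is known in liver for restraining fibrosis. It lies at chr6:31063023-31063093 on the minus strand, in an exon of the non-coding gene Gm27019. In liver its medians were 2.97 CPM at ZT0 (0.928 to 4.94), 5.26 at ZT3 (1.92 to 9.09), 6.81 at ZT6 (3.62 to 9.57) and 7.19 at ZT9 (3.95 to 13.8). They were 4.69 CPM at ZT12 (3.33 to 6.30), 3.75 at ZT15 (1.27 to 5.11), 2.53 at ZT18 (1.83 to 3.77) and 1.51 at ZT21 (0.761 to 3.97). The liver groups of ZT6 and ZT21 overlapped only at their edges, and several ZT0, ZT15 and ZT21 values lie near the limit that a count of 0 allows.

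In hypothalamus the medians of miR-29b-1 were 6.08 CPM at ZT0 (3.42 to 11.1), 6.91 at ZT3 (4.67 to 10.001), 8.58 at ZT6 (4.39 to 12.8), 7.98 at ZT9 (2.65 to 24.7) and 6.17 at ZT12 (4.54 to 11.9). The 5 libraries of ZT15 held 7.37, 6.02, 7.34, 7.48 and 5.38 CPM, those of ZT18 held 6.84, 9.47, 8.60, 9.81 and 4.01 CPM, and those of ZT21 held 5.19, 5.75, 4.34, 9.34 and 2.99 CPM. Every hypothalamus time overlapped with every other.

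The liver curve of miR-29b-1 was the largest among the liver calls with a mean of at least 1 CPM, at 1.65 ± 0.18 with a peak at ZT7.73 ± 0.37 h, and the hypothalamus curve was 0.41 ± 0.18 with a peak at ZT7.45 ± 1.49 h. The liver curve exceeded that of hypothalamus by 1.24 ± 0.25 on the log2 scale, with peaks 0.286 h apart (adjusted p = 0.00157 for the difference, edgeR). The hypothalamus curve alone did not pass (unadjusted p = 0.0639, adjusted p = 0.9999). Within runs the liver size was 1.70, 1.11, 1.30 and 1.13 with peaks from ZT7.61 to ZT8.22, and the hypothalamus size was 0.49, 0.87, 0.41 and 0.33. Over 15 to 36 h alone the difference was 0.90 and the call was lost (adjusted p = 0.322), while over 0 to 21 h alone it was 1.73 (adjusted p = 0.000307).

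The relatives of miR-29b-1 were close to flat in both tissues. miR-29b-2, the other copy, had a size of 0.08 ± 0.18 in liver and 0.14 ± 0.14 in hypothalamus. miR-29a, the abundant neighbour of miR-29b-1 on chromosome 6, averaged 3774 CPM in liver and 14307 CPM in hypothalamus and had a size of 0.02 ± 0.04 in liver and 0.01 ± 0.04 in hypothalamus. miR-29c had 0.04 ± 0.06 in liver and 0.11 ± 0.07 in hypothalamus. Since the 3p strand of both miR-29b copies is identical, the split of its reads between the copies depends on the counting and is uncertain.

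Each library carries a code that recurs once per tissue at the same time and is taken here as the animal, which gave 71 animals with both tissues. The ratio of liver over hypothalamus within an animal is on the log2(CPM + 1) scale after TMM scaling, and its direction can turn with the scaling, so that only its course over time is read. The miR-150 ratio averaged -2.14 ± 0.57 (SD, n = 12) at ZT0, -2.06 ± 0.41 (n = 11) at ZT3 and -1.83 ± 0.57 (n = 12) at ZT6. It was -2.23 ± 0.60 (n = 9) at ZT9, -2.31 ± 0.86 (n = 12) at ZT12, -3.48 ± 0.51 (n = 5) at ZT15, -3.08 ± 0.995 (n = 5) at ZT18 and -2.65 ± 1.03 (n = 5) at ZT21. The 5 animals of ZT15, the time of the lowest mean, all lay below the 12 of ZT6, the time of the highest. The 24 h curve of this ratio was 1.23 ± 0.25 with its peak at ZT5.02 (permutation of time points over animals, two-sided, 100000 resamples, p = 3e-05). The permutation was run only for miRNAs already called in the same libraries, so its p-value is not separate support.

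For miR-29b-1 the ratio within animals averaged 0.37 ± 0.75 at ZT0, 0.94 ± 0.63 at ZT3, 1.16 ± 0.48 at ZT6 and 1.26 ± 0.73 at ZT9. It then averaged 1.04 ± 0.37 at ZT12, 0.58 ± 0.60 at ZT15, 0.09 ± 0.47 at ZT18 and -0.07 ± 0.93 at ZT21. The curve was 1.29 ± 0.22 with a peak at ZT8.01 (permutation p = 1e-05, the smallest that 100000 resamples can give). Of the 26 miRNAs so tested, miR-376b gave 0.93 ± 0.27 (permutation p = 0.00406), miR-142a 0.61 ± 0.20 (permutation p = 0.0108) and miR-16-1 0.38 ± 0.13 (permutation p = 0.0148). The 26 were picked because their difference, liver curve or hypothalamus curve was called in these same libraries. Their permutation p-values were thus favoured in advance, are not separate support and are not adjusted over the 26.

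**Figure D2:**
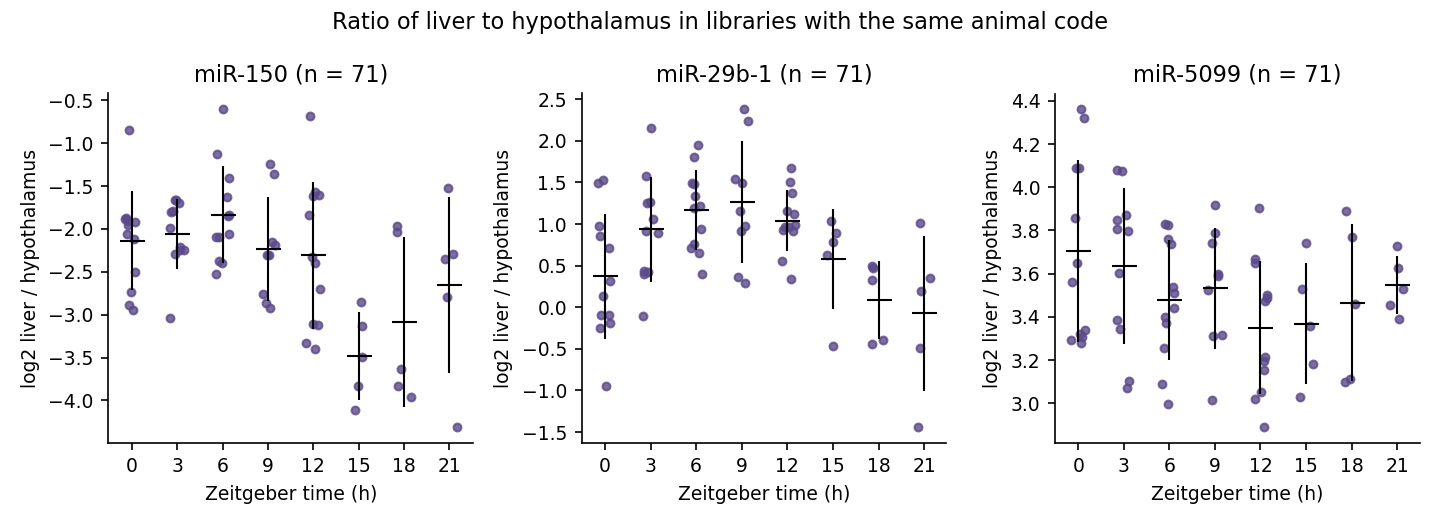
Log2 ratio of liver over hypothalamus in the 71 animals with both tissues against zeitgeber time for miR-150, miR-29b-1 and miR-5099; points are animals, bars are the mean ± SD. The miR-150 mean is highest at ZT6 (-1.83) and lowest at ZT15 (-3.48), and the miR-29b-1 mean is highest at ZT9 (1.26) and lowest at ZT21 (-0.07).

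miR-122, the liver miRNA that regulates cholesterol and fatty acid metabolism, was called for a curve in hypothalamus, not in liver. Its liver level was even over the day, with a fitted size of 0.07 ± 0.16 around a mean of 21398 ± 1647 CPM (SD, n = 77). In hypothalamus the size was 1.62 ± 0.33 (adjusted p = 0.000797) and the difference between tissues had adjusted p = 0.00343. This rested on ZT0 replicate 12, which held 109 counts or 58.4 CPM, while the 71 other hypothalamus libraries had a median of 1.85 and a highest value of 4.91 CPM. The 58.4 CPM are 0.273% of the liver mean, and this library is the single hypothalamus library in run 10, which otherwise holds 25 liver libraries. The other hepatocyte miRNAs in it lay within the range of the other hypothalamus libraries. There miR-192 stood at 2634 CPM, against a median of 1997 and a highest value of 2711 in the others. For miR-194-2 it held 20.9 CPM against 18.5 and 35.3, and for miR-802 1.07 CPM against 1.12 and 5.97. Such ranges cannot show whether these miRNAs were raised by a like share of the liver level, and the source of the miR-122 reads was not tested. Without that library the difference for miR-122 was 0.37 (adjusted p = 0.626), with the animal as a block it was 0.79 (adjusted p = 0.695), and the difference calls numbered 2 of 373 (0.536%).

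**Figure D3:**
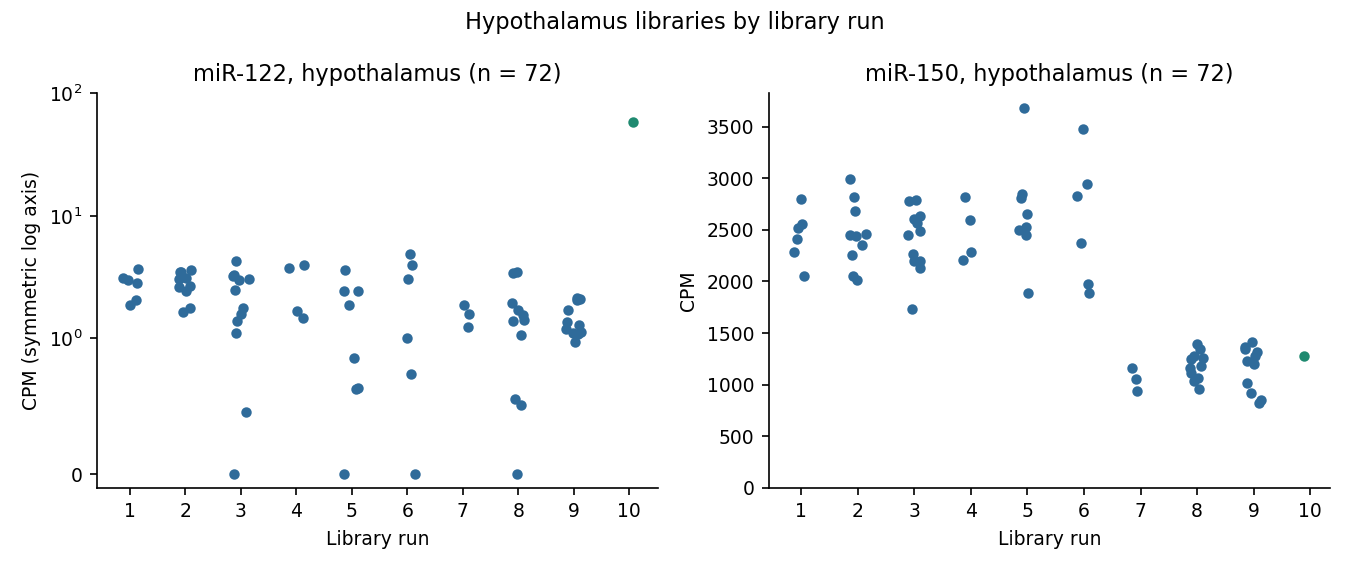
Levels of miR-122 (left, CPM on a symmetric log axis) and miR-150 (right, CPM) in the 72 hypothalamus libraries by library run; each point is a library, and the green point is ZT0 replicate 12 in run 10. miR-122 was 58.4 CPM in that library and at most 4.91 CPM elsewhere, and miR-150 was at least 1735 CPM in runs 1 to 6 and at most 1412 CPM in runs 7 to 10.

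miR-5099, encoded at chr12:36816205-36816278 on the plus strand with no host gene, cycled in both tissues. Its liver medians were highest at ZT6, with 364 CPM (287 to 434), and lowest at ZT18, with 227 CPM (177 to 289). Its hypothalamus medians were highest at ZT6 as well, with 101 CPM (58.6 to 130), and lowest at ZT0, with 60.1 CPM (41.8 to 91.6). The 5 hypothalamus libraries of ZT18 held 104, 70.5, 46.7, 61.3 and 48.1 CPM. The groups of the high and the low time overlapped slightly in liver and more widely in hypothalamus.

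The curve of miR-5099 was 0.59 ± 0.09 in liver with a peak at ZT6.58 ± 0.51 h and 0.68 ± 0.09 in hypothalamus with a peak at ZT8.17 ± 0.49 h. Both passed (adjusted p = 4.67e-07 in liver and 4.48e-08 in hypothalamus, edgeR), as did the mean curve of both tissues, of 0.62 ± 0.06. The difference did not (ratio curve 0.27 ± 0.11, unadjusted p = 0.0596, adjusted p = 0.532). The sizes differed by -0.09 ± 0.13 and the liver peak came 1.58 h earlier. Within animals the ratio curve was 0.30 ± 0.10 (permutation p = 0.0185). In cortex (78 libraries), fitted with the same terms, the size was 0.57 with a peak at ZT8.22.

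Among miRNAs of leukocytes, 6 of 8 listed were tested, with 1 difference call (miR-150), 4 liver calls and 0 hypothalamus calls. Over all 373 tested there were 3 difference, 25 liver and 2 hypothalamus calls. The liver calls were miR-150, miR-142a, miR-223 and miR-342, and all 4 peaked between ZT4.77 and ZT6.30. The list's median size was 0.50 in liver and 0.10 in hypothalamus, against 0.21 and 0.11 over all 373. miR-142a, found in all blood cell lineages, lies at chr11:87756864-87756927 in an intron of Mir142hg. Its liver medians ran from 1024 CPM at ZT15 (938 to 1154), the lowest time, to 1591 CPM at ZT6, the highest, where no library was below 1312 CPM. The hypothalamus medians of miR-142a ran between 441 and 606 CPM without order. Its size was 0.53 ± 0.12 in liver and 0.06 ± 0.11 in hypothalamus, and the difference did not pass (adjusted p = 0.266).

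miR-223, a miRNA of myeloid cells on chromosome X, had liver medians from 40.4 CPM at ZT15 (31.9 to 46.5), the lowest time, to 68.1 CPM at ZT6 (53.3 to 135), the highest. Its hypothalamus medians lay between 9.20 and 13.5 CPM. The size was 0.62 ± 0.15 in liver and 0.08 ± 0.18 in hypothalamus (difference adjusted p = 0.352). miR-342, from an intron of Evl, had 0.48 ± 0.11 in liver and 0.14 ± 0.10 in hypothalamus (difference adjusted p = 0.380). Of the other tested members, miR-155 had 0.28 ± 0.16 in liver and 0.08 ± 0.20 in hypothalamus. miR-146a had 0.39 ± 0.19 in liver and 0.59 ± 0.22 in hypothalamus, and neither was called. Mean CPM was higher in hypothalamus for miR-150 (2013 against 130 in liver) and miR-342 (2069 against 64.7). It was higher in liver for miR-142a (1355 against 517), miR-223 (55.5 against 12.3), miR-146a (1050 against 351) and miR-155 (12.5 against 9.34). Which cells hold these miRNAs in each tissue was not tested.

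Erythroid miRNAs, a sign of blood in the tissue, gave no call among 4 tested members in the joint fit, although the liver curve of miR-451a was called when miRNAs with at least 10 CPM in both tissues were tested alone. Their summed level ran from 619 to 6965 CPM in liver (median 1007) and from 491 to 2143 CPM in hypothalamus (median 872). The liver medians by time ran from 832 CPM at ZT15 to 1101.5 CPM at ZT3. With the summed erythroid level as a covariate miR-150 kept its call (ratio curve 1.20, adjusted p = 0.00291), as did miR-29b-1 (1.22, adjusted p = 0.00291), and miR-142a passed (0.62, adjusted p = 0.0301). This covariate is built from erythroid miRNAs alone, so it cannot follow leukocytes. The part of immune cells in the liver curves was not tested, nor was that of blood beyond this covariate.

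**Figure D4:**
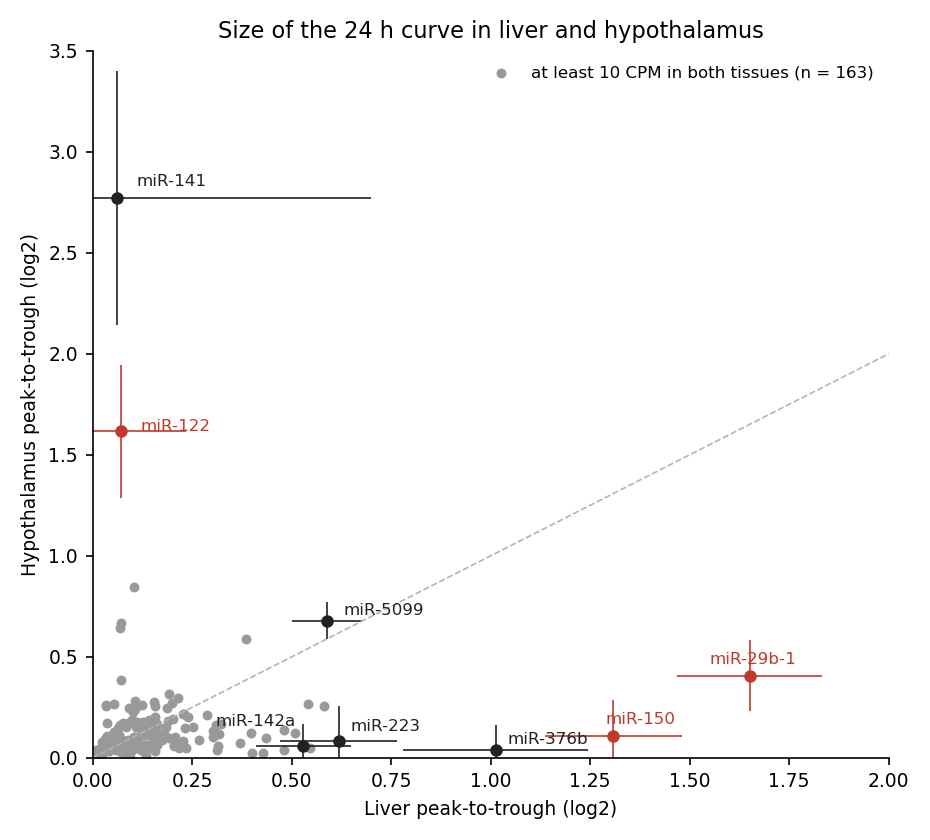
Peak-to-trough log2 size of the 24 h curve in liver (x axis) against hypothalamus (y axis) for the 163 miRNAs with a mean of at least 10 CPM in both tissues (grey) and 8 labelled miRNAs with their SE; red marks the called differences and the dashed line equal sizes. miR-150 (1.31 in liver, 0.11 in hypothalamus) and miR-29b-1 (1.65, 0.41) lie far to the right of the line, miR-5099 close to it, and miR-122 and miR-141 lie high on the hypothalamus axis, where single libraries stood far above the rest.

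The imprinted Dlk1-Dio3 cluster on chromosome 12 holds a large group of miRNAs that are made from the maternal chromosome and abundant in brain. Of 36 listed members 35 were tested, with 0 difference calls, 9 liver calls, 0 hypothalamus calls and 11 differences at an unadjusted p under 0.05. Over all 373 tested there were 3 difference calls, 25 liver calls, 2 hypothalamus calls and 36 differences at that unadjusted p. Their summed level had a median of 612 CPM in liver and 472228 CPM in hypothalamus. The liver sum had its highest median at ZT15, with 845 CPM (718 to 1123), and its lowest at ZT9, with 485 CPM (359 to 1022). The hypothalamus medians stayed between 463464 and 474661 CPM at all 8 times.

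The 9 cluster members called in liver were miR-376b, miR-299a, miR-379, miR-300, miR-127, miR-381, miR-409, miR-411 and miR-541. Their liver peaks lay between ZT15.4 and ZT17.3, opposite to those of the leukocyte group. With library run as a term, only miR-376b of these 9 kept its liver call. miR-376b had the largest size, 1.01 ± 0.23 in liver and 0.04 ± 0.12 in hypothalamus, at means of 1.90 CPM in liver and 1158 CPM in hypothalamus. Its liver medians were 1.22 CPM at ZT3 (0 to 4.19) and 3.43 CPM at ZT15 (1.03 to 5.09), at the limit that a count of 0 allows. Its difference had adjusted p = 0.0715, and it passed in 6 of 20 other settings, with adjusted p from 0.00507 to 0.497. miR-127, an antisense partner of the retrotransposon-derived gene Rtl1, had 0.40 ± 0.10 in liver (328 CPM) and 0.03 ± 0.09 in hypothalamus (257324 CPM), with adjusted p = 0.334 for the difference.

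Of the 35 tested cluster members, 33 had a larger size in liver, against 253 of all 373. Many of these liver levels are a few CPM, and a size cannot fall below 0 and grows with noise, so that low levels give larger sizes. Among the 163 miRNAs with at least 10 CPM in both tissues the size was larger in liver for 96, with medians of 0.13 in liver and 0.10 in hypothalamus. When liver was fitted alone, with its own filter and spread, 12 of 241 miRNAs were called (4.98%), and no cluster member was among them. Of the 9 members called in liver in the joint fit, 7 were tested there. Their sizes in that fit ran from 0.38 for miR-127 (adjusted p = 0.110) to 0.74 for miR-379 (adjusted p = 0.138), while miR-376b and miR-299a were removed by its filter. In hypothalamus fitted alone 1 of 380 was called (0.263%), miR-5099.

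**Figure D5:**
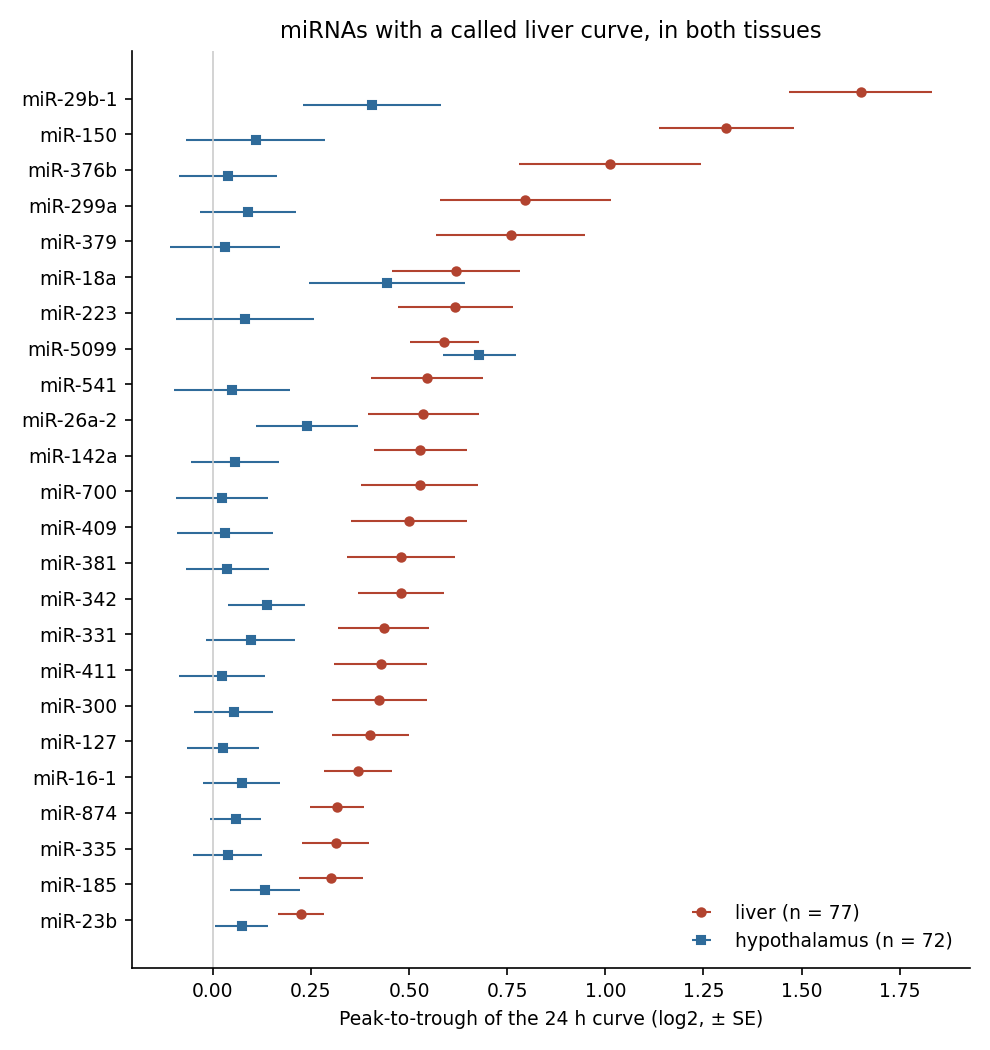
Peak-to-trough log2 size ± SE of the 24 h curve in liver (red circles, n = 77) and hypothalamus (blue squares, n = 72) for 24 of the 25 miRNAs called in liver, ordered by the liver size; miR-219a-2, at 0.0421 CPM in liver, is left out for its SE of 2.98. The sizes lie apart for miR-150 and miR-29b-1, whose differences were called. They also lie apart by more than their SE for miRNAs without a called difference, such as miR-142a, miR-223 and miR-127. Those of miR-5099 and miR-18a overlap within their SE.

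The other liver calls were spread over the day. miR-26a-2, in an exon of Ctdsp2, had 0.54 ± 0.14 in liver and 0.24 ± 0.13 in hypothalamus, and miR-18a of the miR-17 to miR-92 cluster had 0.62 ± 0.16 in liver and 0.44 ± 0.20 in hypothalamus. miR-18a and miR-26a-2 were also called for the mean curve of both tissues (adjusted p = 0.0212 and 0.0437, edgeR). These mean-curve calls held in 9 of 19 other settings for miR-18a and in 1 of 19 for miR-26a-2. miR-16-1, a cell-cycle inhibitor hosted by Dleu2, had 0.37 ± 0.09 in liver with a peak at ZT6.95 and 0.07 ± 0.10 in hypothalamus (difference adjusted p = 0.266). miR-700, miR-331, miR-335, miR-874, miR-185 and miR-23b had liver sizes from 0.23 to 0.53 and hypothalamus sizes from 0.02 to 0.13.

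A further 3 miRNAs with at least 10 CPM in both tissues had a difference at an unadjusted p under 0.05. None passed the adjusted threshold in the joint fit, and none had a called curve in either tissue there. With ZT as a factor the difference of miR-195a was called (adjusted p = 0.0121, edgeR). The liver curve of miR-374b was called when miRNAs with at least 10 CPM in both tissues were tested alone. The fitted peaks of the 3 lay far apart, but a peak time is loosely set where the curve is near its noise. With hypothalamus fitted alone, unadjusted p was 0.265 for miR-181a-1, 0.664 for miR-374b and 0.411 for miR-195a (edgeR). miR-181a-1 peaked at ZT8.09 in liver (0.23 ± 0.09) and at ZT18.0 in hypothalamus (0.15 ± 0.08), with adjusted p = 0.317. miR-374b, from an intron of Ftx, peaked at ZT8.95 in liver (0.27 ± 0.09) and at ZT21.5 in hypothalamus (0.09 ± 0.09), with adjusted p = 0.380. miR-195a peaked at ZT12.5 in liver (0.18 ± 0.07) and at ZT2.34 in hypothalamus (0.11 ± 0.08), with the same adjusted p.

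Neuroendocrine miRNAs carried the largest nominal curve of the hypothalamus. miR-375 had a size of 0.28 ± 0.72 in liver and 3.76 ± 0.62 in hypothalamus, without a call (difference unadjusted p = 0.0119, adjusted p = 0.317). With ZT as a factor, over 0 to 21 h alone and over 15 to 36 h alone, the differences of miR-375, miR-141 and miR-200c were called, and DESeq2 called the hypothalamus curve of miR-375. The values of ZT0 replicate 9 and ZT9 replicate 8 given above stand beside a median of 645 CPM in the 70 other hypothalamus libraries. In the same libraries miR-141 stood at 7807 and 5938 CPM, against a median of 67.3 CPM in the others. miR-7b, at 809 and 905 CPM, and miR-7a-2, at 249 and 227 CPM, were also above all others, whose highest values were 567 and 188 CPM. miR-7a-1 stood at 56.8 and 76.2 CPM, against a median of 87.6 CPM in the others, and the first of these was the lowest of all 72. Without this pair of libraries miR-150 (ratio curve 1.15, adjusted p = 0.00389) and miR-29b-1 (1.26, adjusted p = 0.00283) kept their calls and 5 differences were called. The others were miR-122, miR-376b and miR-6978, so that miR-375, miR-141 and miR-200c were not called. Without this pair and ZT0 replicate 12 the count was 4, and miR-122 was not among them.

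In cortex, the other brain tissue with 78 libraries, miR-150 had a size of 0.14 and miR-29b-1 one of 0.18, beside the hypothalamus values of 0.11 and 0.41. Of 34 listed miRNAs tied to the circadian clock by earlier work 32 were tested, with 2 difference calls (miR-29b-1 and miR-122), 4 liver calls and 1 hypothalamus call, and their median size was 0.14 in liver and 0.11 in hypothalamus, against 3, 25 and 2 calls and medians of 0.21 and 0.11 over all 373. Hepatocyte miRNAs had 7 of 8 members tested, with 1 difference call and 1 hypothalamus call (both miR-122) and 0 liver calls. Neuronal miRNAs had 13 of 16 tested with 0 calls in the joint fit. With limma voom, with or without the animal block, miR-124-2 was called for the difference and the hypothalamus curve, and miR-122 was not. In the joint fit no call fell on the 9 neuroendocrine, 6 choroid plexus and retina or 3 vessel miRNAs tested. The miR-15 and miR-16 family had 7 of 7 tested with 1 liver call (miR-16-1), the miR-29 family 4 of 4 with 1 difference call, and the oligodendrocyte list 3 of 3 with 1 liver call, miR-219a-2, which was nearly absent from liver.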

How the data were processed

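Small RNA of flash-frozen liver and hypothalamus was extracted with a column kit and sequenced by Illumina protocols, per the labels. The authors deposited whole-number counts per miRNA hairpin and library, not normalized. GRCm38 was the build, with the aligner STAR (2.7.3a) and the counter HTSeq (0.10.0) named in the submitters' processing notes. Trimming, the miRNA release and the handling of reads matching several places are not given in the sources used here. If such reads were dropped or split, miRNAs with several copies would be undercounted.

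CPM are counts scaled to a common library total. R 4.3.3 and edgeR 4.0.16 gave the tests (glmQLFit and glmQLFTest, after filterByExpr by tissue and TMM), in 1 fit of 149 libraries with a cosine and sine of 24 h per tissue; p-values were adjusted over the 373 miRNAs tested. Sizes are peak-to-trough log2 values of the fitted curve, with delta-method SE. Noise gives every curve a size above 0. limma 3.58.1 and DESeq2 1.42.0 served as alternatives, and Python 3.11.15 with pandas 2.3.3 and matplotlib 3.10.9 for ratios and plots. The fits were tested on simulated data. No depth-based interval covers more than counting error, since reads carried no molecular identifiers. Libraries of 1 ZT are taken as separate animals from their codes. Of 71 pairs of libraries with 1 code, all had the same time; their deviations correlated by a median of 0.00476 (-0.177 to 0.222).

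Named are all called miRNAs and the 15 smallest p-values of the difference with at least 10 CPM in both tissues. Relatives are given for miR-29b-1, and the ends of the lists are named only in part. miR-375 and its companions in the libraries that stand apart were chosen after their values were seen. Members and lists were chosen with earlier results of these data known. Lists were leukocyte, erythroid, hepatocyte, neuronal, oligodendrocyte, neuroendocrine, choroid plexus and retina, vessel, miR-29, miR-15/16, clock-linked and Dlk1-Dio3. Alternatives covered scaling, tool, filter, block, run, time terms and samples left out. Striatum was not used.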

Additional observations from a re-analysis of the deposited data

Results flagged for a closer look

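The 24 h curve differed between liver and hypothalamus by the test of the interaction for miR-150 (adjusted p = 0.00157), miR-29b-1 (adjusted p = 0.00157) and miR-122 (adjusted p = 0.00343, edgeR). The last of these rests on 1 hypothalamus library. For miR-29b-1, the hypothalamus ZT9 replicate 3 library stood far from the 9 others of its group, at 24.7 CPM with the next highest at 9.53 CPM. Of the 21 groups of 4 to 10 libraries looked at for these miRNAs this was the only one so set apart, and chance flags about 1 in 20.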

How the results depend on the processing

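Counts of calls depended on the setting. The 3 difference calls became 5 with DESeq2, 1 with at least 10 CPM in both tissues, 11 with ZT as a factor, 12 over 0 to 21 h alone, 5 without the pair of hypothalamus libraries high in miR-375 and 5 with the erythroid covariate. The 25 liver calls became 12 with limma voom and with animal as a random block, 10 with no filter, 14 with the run term, 4 over 15 to 36 h, 12 with liver alone and 15 with the erythroid covariate. The 2 hypothalamus calls became 5 with no filter, 1 at 10 CPM, with the run term, without ZT0 replicate 12 and with the tissue alone, 11 with ZT as a factor and over 0 to 21 h, and 8 over 15 to 36 h. The 8 mean-curve calls became 5 with library totals, TMM within tissues, the same pairs without a block and the erythroid covariate. They numbered 3 with voom, voom with the block and 10 CPM, and 4 with the run term, 12 h terms and without replicate 12. With ZT as a factor they numbered 14, and over 0 to 21 h 16. Beyond fewer libraries or miRNAs, the cause was not tested. Leaving out 1 animal or library in turn (94 fits) gave 2 to 9 differences, 12 to 29 liver, 1 to 10 hypothalamus and 3 to 15 mean-curve calls. The 9, 10 and 15 arose without the animal of hypothalamus ZT9 replicate 8, and the 12 without that of liver ZT15 replicate 4. With animal as a block over the 71 pairs the differences numbered 2, against 4 for the same pairs without a block. miR-150 and miR-29b-1 were called in all 94 fits. The ratio curve of miR-18a, not called, reversed its direction with the erythroid covariate (0.13). Settings added after seeing the data were the erythroid covariate, each tissue alone and the samples left out for miR-375. Depth limits miRNAs of a few CPM in liver.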
